A study of Caenorhabditis elegans with 22 samples.

Results

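The loci described here are those of 5 digestive genes of the Caenorhabditis elegans intestine: ges-1, pho-1, cpr-1, asp-1 and pept-1. They were chosen by name as well-known gut enzyme and transporter genes and are 5 of 19971 protein-coding genes. Each locus was taken as the gene with 20 kb of DNA on either side, which gave 219 of 100275 bins of 1 kb, and as the 8 of 10030 bins of 10 kb that overlap one of the genes. The assay was DamID, in which a bacterial adenine methyltransferase (Dam) fused to a protein of interest methylates GATC sites in the DNA it meets, and the methylated fragments are sequenced. Dam::EMR-1 carries the enzyme on EMR-1, the worm's emerin, which sits in the membrane around the nucleus, and GFP::Dam is free in the nucleus and serves as the measure of accessible DNA.

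Both fusions were measured in first-stage (L1) larvae in 4 backgrounds. The first was mrg-1 RNAi in otherwise wild-type worms, and the second was the cec-4(ok3124) mutant on control RNAi. The third was mrg-1 RNAi in cec-4(ok3124), called the combination here, and the fourth was wild type on control RNAi. Dam::EMR-1 was carried by strain GW1379 in cec-4 mutants and the combination, and by GW1377 in wild type and under mrg-1 RNAi alone. GFP::Dam was carried by GW1380 in cec-4 mutants and the combination, and by GW1378 in wild type and under mrg-1 RNAi alone. All strains held the fusion behind the hsp-16.41 heat-shock promoter, used without heat shock for trace levels, and it was made after recombination by FLP under the elt-2 promoter, which is active in the intestine. Mothers fed on the RNAi bacteria for 66 h at 20 °C, and their hatched larvae, held overnight without food, were then fed Dam-free bacteria in liquid for 2.5 h. Each group had 3 replicate libraries, except that mrg-1 RNAi alone had 2 for each fusion, numbered 2 and 3, because 1 replicate was dropped by the submitters for technical reasons. No RNA was measured in these libraries, so the intestine label rests on the elt-2 driver and could not be checked against marker transcripts.

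Genes active in a tissue are often found away from the nuclear membrane, and silent chromatin with methylated histone H3 lysine 9 is often held at it. In C. elegans the outer parts of the chromosomes carry most of this chromatin, and the chromodomain protein CEC-4 anchors it at the membrane in embryos. MRG-1 is a chromodomain protein of euchromatin. The 5 genes encode proteins of digestion in gut cells: an esterase (GES-1), an acid phosphatase (PHO-1), a cysteine protease of the cathepsin B kind (CPR-1), an aspartic protease of the cathepsin D kind (ASP-1) and the proton-coupled transporter of small peptides in the gut's apical membrane (PEPT-1). A log2 ratio above 0 below means a larger share of Dam::EMR-1 than of GFP::Dam reads. A library averages over all cells that made the fusion, so fewer cells in contact with the membrane and less contact per cell cannot be told apart.

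The 22 libraries held 2246126 to 18737218 mapped reads. The GFP::Dam libraries of replicate 2 stood apart: the richest 1% of 1 kb bins held 19.8% to 25.2% of their reads, against 35.3% to 54.9% in replicates 1 and 3. For Dam::EMR-1 these shares overlapped, at 19.6% to 28.1% in replicate 2 and 25.4% to 43.5% in replicates 1 and 3. The fits at 10 kb, 100 kb and over gene bodies, and the pair values, were therefore also run without replicate 2 of every group. Values from that setting are given for some of these results. The 1 kb fits were not run that way. Ratios were fitted with edgeR over all bins with TMM scaling, and scaling by library size instead would move the median wild-type log2 ratio over all bins to 0.04 from −0.11 at 10 kb. A bin or gene is called higher or lower at a Benjamini-Hochberg adjusted p under 0.05 over all bins or genes tested.

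The 10 kb bins that hold most of pho-1, cpr-1, asp-1 and pept-1 were depleted in Dam::EMR-1 in all 4 backgrounds. The bin of pho-1 also holds its neighbour pho-4, which had more reads. Over the gene body itself, pho-1 was called lower in wild type only. The bin with most of ges-1 had log2 ratios above 0, called in cec-4 mutants and in wild type, and the bin with the rest of ges-1 had ratios below 0. Of the 8 bins of 10 kb, 5 were called lower under mrg-1 RNAi, where 21.1% of all bins were, and none was called higher, against 18.5% of all bins. In cec-4 mutants 5 were called lower and 1 higher, against 20.3% and 21.1% of all bins, and in the combination 7 were called lower and 0 higher, against 22.9% and 23.7%. In wild type 6 were called lower and 1 higher, against 29% and 25.4% of all bins. The median log2 ratio of the 8 bins was −4.39 under mrg-1 RNAi, −4.22 in cec-4 mutants, −3.92 in the combination and −4.24 in wild type, beside −0.06, 0.17, 0.11 and −0.11 over all bins. Without replicate 2 of every group the number called lower was 4 under mrg-1 RNAi, 5 in cec-4 mutants, 7 in the combination and 6 in wild type.

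**Figure D1:**
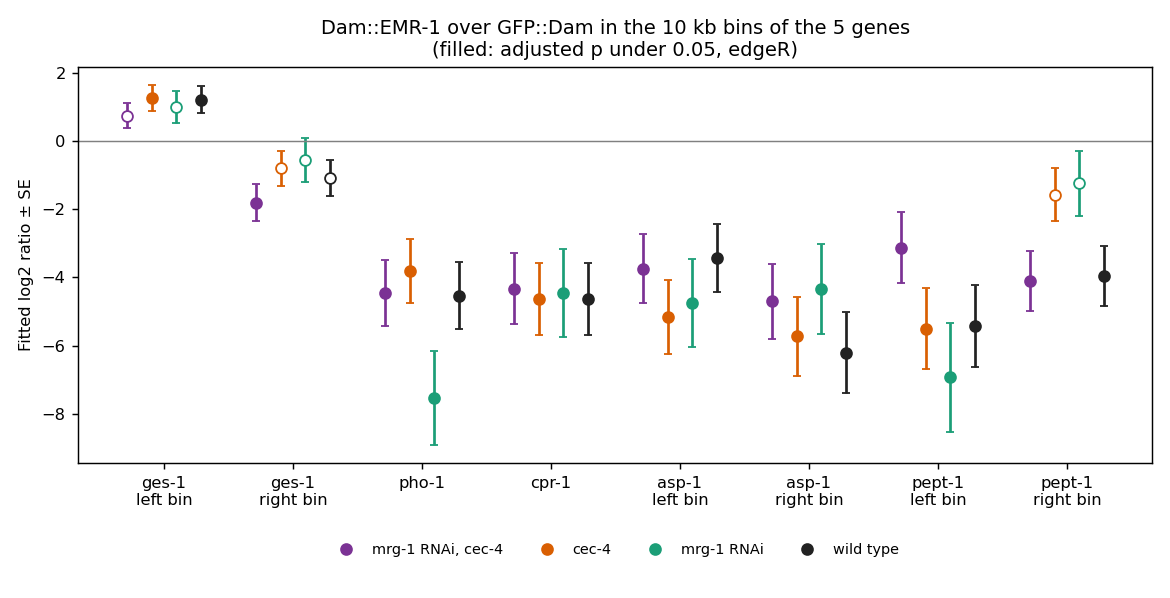
Fitted log2 ratio of Dam::EMR-1 over GFP::Dam (vertical axis, ± SE) in each 10 kb bin of the 5 genes, coloured by background; filled points have an adjusted p under 0.05. The left bin of ges-1 is the only bin above 0, between 0.75 and 1.27, and the bins of pho-1, cpr-1 and asp-1 and the left bin of pept-1 lie below −3 in every background.

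The esterase gene ges-1 (chromosome V, 1427653 to 1432137, build ce11) lies in the left part of its chromosome divided into 3 equal lengths. Its 1 kb bins held 8.86 and 3.70 CPM per bin (count of the library's reads, scaled to CPM by its total) with Dam::EMR-1 under mrg-1 RNAi, against 7.25 and 3.50 with GFP::Dam. In cec-4 mutants they held 5.04, 9.14 and 3.43 with Dam::EMR-1 and 4.27, 9.96 and 2.62 with GFP::Dam. The 2 fusions overlapped in both backgrounds. In the combination they held 3.19, 7.04 and 2.88 with Dam::EMR-1 and 10.3, 10.8 and 5.69 with GFP::Dam. In wild type they held 12.0, 7.77 and 5.27 with Dam::EMR-1 and 10.5, 9.84 and 2.82 with GFP::Dam. The fusions overlapped in the combination and in wild type too, but in the combination each Dam::EMR-1 library was below the GFP::Dam library of its own number.

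ges-1 straddles 2 bins of 10 kb that differed in sign. The left bin, which holds slightly more of the gene, had a log2 ratio of 0.99 ± 0.47 (SE; adjusted p = 0.0945) under mrg-1 RNAi, 1.27 ± 0.38 (adjusted p = 0.0128) in cec-4 mutants, 0.75 ± 0.38 (adjusted p = 0.108) in the combination and 1.22 ± 0.38 (adjusted p = 0.0119) in wild type. These levels are ordinary for that part of the chromosome: 49.1% of its 674 bins had a lower ratio in wild type. Without the second Dam::EMR-1 library of wild type the bin was no longer called there (adjusted p = 0.0676), nor with the libraries of wild type fitted alone (adjusted p = 0.0512). The cec-4 call was lost without replicate 2 of every group (adjusted p = 0.0728). It was also lost in cec-4 without the first Dam::EMR-1 library of that background (adjusted p = 0.0803) or its second GFP::Dam library (adjusted p = 0.0536).

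The right 10 kb bin of ges-1 had a log2 ratio of −0.56 under mrg-1 RNAi, −0.80 in cec-4 mutants, −1.80 ± 0.53 (SE) in the combination and −1.08 in wild type. Only the combination's value was called (adjusted p = 0.0102), and it was lost without the third Dam::EMR-1 library (adjusted p = 0.0509) or with scaling by library size (adjusted p = 0.0945). With the replicate number as a block the wild-type value was −0.96 and was called lower (adjusted p = 0.0395). The 1 kb bin with the lowest called ratio of the whole ges-1 window in wild type covered the right end of the gene, with 23 Dam::EMR-1 reads against 508 GFP::Dam reads and a log2 ratio of −4.10 ± 1.05 (SE; adjusted p = 0.0102). The same bin had −2.65 (adjusted p = 0.148) under mrg-1 RNAi, −3.63 (adjusted p = 0.0241) in cec-4 mutants and −4.89 (adjusted p = 0.00718) in the combination. The highest called 1 kb bin held 63 Dam::EMR-1 reads against 12 GFP::Dam reads, a log2 ratio of 3.10 ± 1.10 (SE; adjusted p = 0.0427), and no protein-coding gene overlaps it. Its call was lost without any 1 of the 6 wild-type libraries (adjusted p from 0.0545 to 0.136), and that of the lowest bin without the third Dam::EMR-1 library (adjusted p = 0.0532), without the first GFP::Dam library (adjusted p = 0.0534) or with scaling by library size (adjusted p = 0.0696). Of the 10 other protein-coding genes of the window, cnc-2, of the caenacin family of antimicrobial peptides, and srj-23, a chemoreceptor gene, were called higher in wild type (2.85 and 2.55), where 14.2% of all gene bodies were, and 0 were called lower.

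The acid phosphatase gene pho-1 (chromosome II, 5233156 to 5235846) was measured at low depth. Under mrg-1 RNAi it held 4 and 0 reads with Dam::EMR-1 and 62 and 80 with GFP::Dam. In cec-4 mutants it held 0, 9 and 0 reads with Dam::EMR-1 and 0, 69 and 1 with GFP::Dam, so that replicates 1 and 3 carried next to no information on the gene there. With no read, the first GFP::Dam library of cec-4 allows up to 0.359 CPM (3 counts), and the third held 1 read of 18737218. In the combination the gene held 0, 6 and 4 reads with Dam::EMR-1 and 24, 115 and 153 with GFP::Dam, and in wild type 1, 1 and 1 with Dam::EMR-1 and 45, 42 and 171 with GFP::Dam. In wild type, mrg-1 RNAi and the combination every Dam::EMR-1 library was therefore below every GFP::Dam library, and in cec-4 mutants the fusions overlapped. Over the 3 wild-type libraries of each fusion, the gene's share of Dam::EMR-1 reads was 0.0343 of its share of GFP::Dam reads, with an exact 95% interval of 0.00703 to 0.101 that covers counting error only.

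At 10 kb the bin of pho-1 was called lower in all 4 backgrounds, with log2 ratios of −7.54 ± 1.38 (SE; adjusted p = 0.00112) under mrg-1 RNAi, −3.81 ± 0.93 (adjusted p = 0.00349) in cec-4 mutants, −4.45 ± 0.96 (adjusted p = 0.0014) in the combination and −4.53 ± 0.97 (adjusted p = 9.0e-04) in wild type. All 4 calls held without replicate 2 of every group and without any single library. Over the gene body itself the wild-type ratio was called lower at −4.99 ± 1.81 (adjusted p = 0.0361), and leaving out any 1 of the 6 libraries ended the call, with adjusted p up to 0.098. The same bin holds all of pho-4, a gene of the same phosphatase family with more reads than pho-1, which held 13 reads with Dam::EMR-1 against 3760 with GFP::Dam under mrg-1 RNAi, 350 against 8709 in cec-4 mutants, 128 against 5569 in the combination and 33 against 3698 in wild type. Its log2 ratios were −7.94, −4.24, −4.61 and −5.46, and all were called lower. The bin of pho-1 was not unusual for the middle part of chromosome II, where 36.3% of 509 bins had a lower wild-type ratio.

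The cysteine protease gene cpr-1 (chromosome V, 11975551 to 11976756) stood in strongly GFP::Dam-methylated DNA. It held 5.06 and 2.28 CPM per 1 kb bin with Dam::EMR-1 under mrg-1 RNAi, against 86.2 and 49.2 with GFP::Dam. In cec-4 mutants the values were 5.06, 6.08 and 2.11 with Dam::EMR-1 and 120, 85.2 and 44.5 with GFP::Dam. In both, every Dam::EMR-1 library lay below every GFP::Dam library. In the combination the values were 15.0, 5.60 and 0.67 with Dam::EMR-1 and 208, 90.4 and 55.1 with GFP::Dam, and in wild type 0.798, 11.6 and 2.00 with Dam::EMR-1 and 193, 74.5 and 22.7 with GFP::Dam. The fusions did not overlap there either. The left 1 kb bin of cpr-1 had a wild-type GFP::Dam level above 99.6% of all 1 kb bins.

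The 10 kb bin of cpr-1 had nearly the same ratio in each background: −4.46 ± 1.29 (SE; adjusted p = 0.0117) under mrg-1 RNAi, −4.63 ± 1.06 (adjusted p = 0.00229) in cec-4 mutants, −4.33 ± 1.04 (adjusted p = 0.00279) in the combination and −4.63 ± 1.06 (adjusted p = 0.00148) in wild type. The call under mrg-1 RNAi was lost without the third Dam::EMR-1 library of that background (adjusted p = 0.0888) and without replicate 2 of every group (adjusted p = 0.0887). cpr-1 lies in the middle part of chromosome V, where 13.6% of 690 bins had a lower wild-type ratio than its bin. Of all 10 kb bins in the middle parts of the chromosomes 53.4% were called lower in wild type. The 10 other protein-coding genes of the window were all called lower in wild type, where 23.1% of all gene bodies, in any part, were. The number called lower was 6 under mrg-1 RNAi, 7 in cec-4 mutants and 6 in the combination, against 10.7%, 12.6% and 15.4% of gene bodies. They include mif-2, a homologue of macrophage migration inhibitory factor whose left end shares a 1 kb bin with cpr-1 (−6.89 in wild type), snr-4, which encodes a spliceosomal Sm protein (−5.61), and rpt-1, a proteasome subunit gene (−3.43).

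The aspartic protease gene asp-1 (chromosome V, 19049562 to 19050752) had the highest GFP::Dam level of the 5 genes. Its 1 kb bins held 11.6 and 32.4 CPM per bin with Dam::EMR-1 under mrg-1 RNAi, against 211 and 983 with GFP::Dam. In cec-4 mutants they held 23.3, 10.3 and 8.05 with Dam::EMR-1 and 998, 128 and 770 with GFP::Dam. The Dam::EMR-1 libraries lay below the GFP::Dam libraries without overlap. In the combination they held 44.9, 8.56 and 16.8 with Dam::EMR-1 and 569, 118 and 408 with GFP::Dam, and in wild type 3.99, 15.4 and 4.45 with Dam::EMR-1 and 589, 167 and 861 with GFP::Dam. The fusions did not overlap in either. Replicate 2 was the lowest GFP::Dam library in every background, at 118 to 211, against 408 to 998 in replicates 1 and 3. The 2 bins of 1 kb on the gene ranked 13 and 47 of 100275 by wild-type GFP::Dam level.

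The 2 bins of 10 kb that share asp-1 were called lower in all 4 backgrounds. The right bin, with most of the gene, had log2 ratios of −4.32 ± 1.32 (SE; adjusted p = 0.0156) under mrg-1 RNAi, −5.72 ± 1.15 (adjusted p = 0.00101) in cec-4 mutants, −4.70 ± 1.10 (adjusted p = 0.00235) in the combination and −6.21 ± 1.19 (adjusted p = 3.9e-04) in wild type. The left bin had −4.75, −5.17, −3.74 and −3.43. Under mrg-1 RNAi the call of the right bin was lost without the second Dam::EMR-1 library (−3.63; adjusted p = 0.101) or the third GFP::Dam library (−2.45; adjusted p = 0.174). The call of the left bin was lost there without the third Dam::EMR-1 library (adjusted p = 0.083) or the third GFP::Dam library (adjusted p = 0.153). asp-1 lies in the right part of chromosome V, whose 696 bins had a median wild-type log2 ratio of 1.43, and 0% of those bins lay below its right bin and 2.16% below its left bin. Without replicate 2 of every group the wild-type ratio of the right bin was −7.78 (adjusted p = 3.1e-04).

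Of the 30 bins of 1 kb that could be tested in its window, 8 were called lower in wild type, beside 21.5% of all 1 kb bins tested, among them the 2 on the gene at −7.41 ± 1.70 (SE; adjusted p = 0.00624) and −7.14 ± 1.49 (adjusted p = 0.00435). The 6 other protein-coding genes of the window were not called in wild type, although 23.1% of all gene bodies were called lower. They include 3 more aspartic protease genes just to the left: asp-15 at −2.08 ± 1.11 (adjusted p = 0.141), asp-16 at 0.04 ± 1.06 (adjusted p = 0.981) and asp-17 at −0.35 ± 1.01 (adjusted p = 0.798). Genes of this family are similar in sequence, and how reads that map to more than 1 place were treated is not given in the sources used here.

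The peptide transporter gene pept-1 (chromosome X, 6456872 to 6461767) had the lowest gene-body ratio of the 5 in wild type, though its counting interval overlapped that of asp-1. It held 5 and 1 reads with Dam::EMR-1 under mrg-1 RNAi, and 307 and 715 with GFP::Dam. In cec-4 mutants it held 0, 11 and 2 against 300, 435 and 1225. In the combination it held 21, 22 and 47 against 941, 504 and 1412, and in wild type 2, 5 and 1 against 776, 350 and 1116. The fusions were far apart in every background, and the 3 Dam::EMR-1 libraries of the combination held more reads on the gene than any Dam::EMR-1 library of another background. In CPM per 1 kb bin they held 1.05, 0.775 and 0.70, against 0.133, 0.27 and 0.0742 in the 3 wild-type libraries, again without overlap. Nearly all of the 47 reads of the third library lay in the 1 kb bin near the left end of the gene, described below. In wild type the gene's share of Dam::EMR-1 reads was 0.0105 of its share of GFP::Dam reads (exact 95% interval 0.00454 to 0.0208, counting error only), and in the combination it was 0.0484 (0.0388 to 0.0597). The wild-type share at asp-1 was 0.0140 (0.0118 to 0.0166).

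pept-1 spans 2 bins of 10 kb. The left bin, with most of the gene, was called lower in all 4 backgrounds, at −6.92 ± 1.60 (SE; adjusted p = 0.00333) under mrg-1 RNAi, −5.50 ± 1.19 (adjusted p = 0.00157) in cec-4 mutants, −3.13 ± 1.04 (adjusted p = 0.0188) in the combination and −5.42 ± 1.20 (adjusted p = 0.00109) in wild type. The call in the combination was lost without the first (adjusted p = 0.074) or second (adjusted p = 0.0662) Dam::EMR-1 library or the third GFP::Dam library (adjusted p = 0.0506). The right bin was called lower in the combination (−4.10 ± 0.88; adjusted p = 0.00131) and in wild type (−3.95 ± 0.88; adjusted p = 0.00114). It was −1.24 ± 0.95 (adjusted p = 0.3) under mrg-1 RNAi and −1.57 ± 0.79 (adjusted p = 0.114) in cec-4 mutants. In the middle part of chromosome X, 7.30% of 589 bins had a lower wild-type ratio than the left bin of pept-1 and 23.9% than its right bin. The lowest 1 kb bin of the gene had −9.41 ± 1.59 (adjusted p = 0.00279) in wild type, the 1 kb bin near the left end −4.67 ± 1.25 (adjusted p = 0.0127). That bin near the left end had −0.53 ± 0.98 (adjusted p = 0.736) in the combination, where it held 8, 6 and 45 reads with Dam::EMR-1 and 20, 36 and 24 with GFP::Dam. Within 20 kb of pept-1, 9 of 15 other genes that could be tested were called lower in wild type, where 23.1% of gene bodies were, among them fah-1, for fumarylacetoacetase of tyrosine breakdown (−5.80), and the aspartic protease gene asp-14 (−5.24). The number called lower was 3 under mrg-1 RNAi, 4 in cec-4 mutants and 6 in the combination, against 10.7%, 12.6% and 15.4% of gene bodies.

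**Figure D2:**
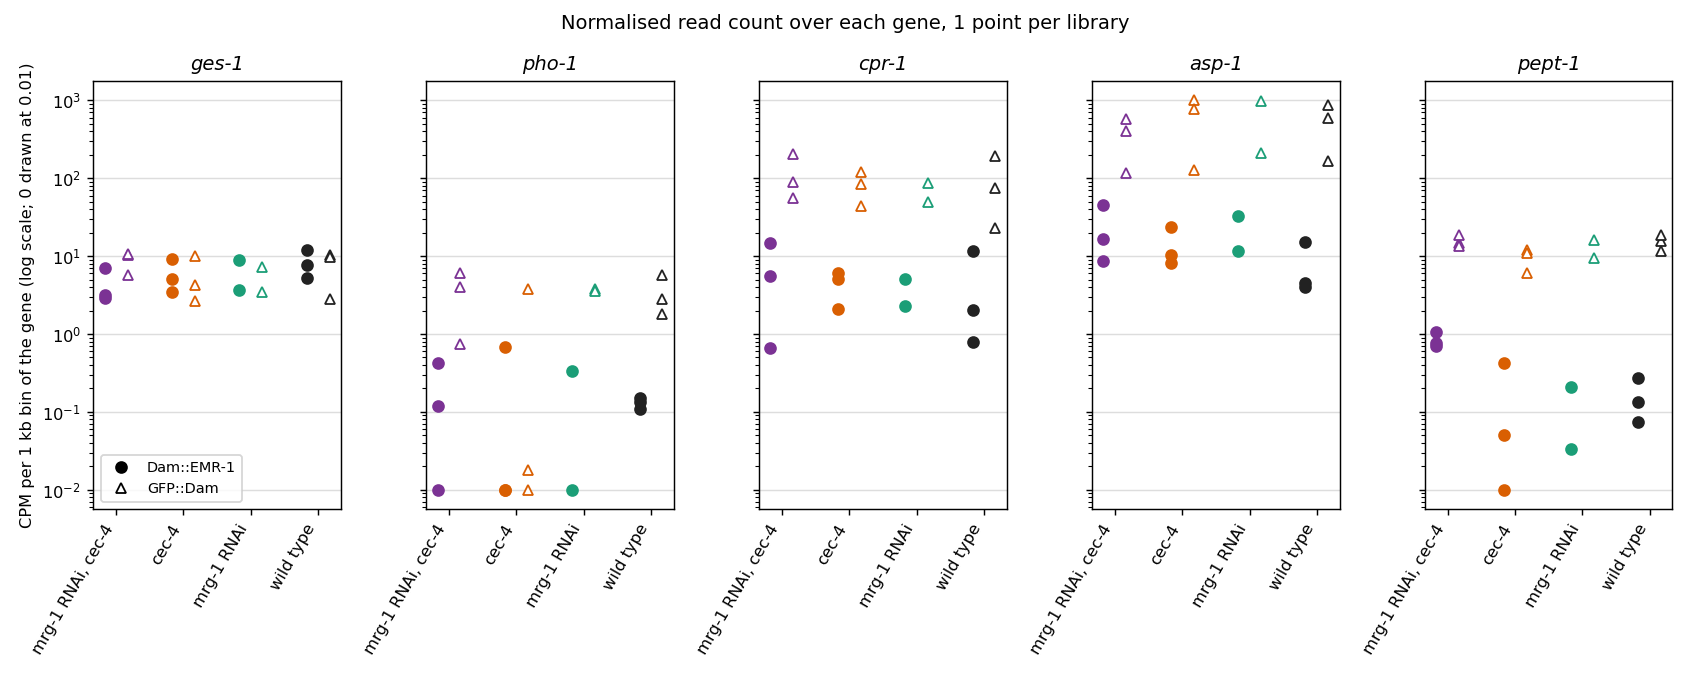
Normalised read count over each gene (CPM per 1 kb bin, log scale, 0 drawn at 0.01), 1 point per library, with Dam::EMR-1 filled and GFP::Dam open in each background. The fusions overlap at ges-1, and at cpr-1, asp-1 and pept-1 every GFP::Dam point lies above every Dam::EMR-1 point of its background; asp-1 has the highest GFP::Dam values, from 118 to 998.

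Levels of GFP::Dam in wild type, in CPM per 1 kb bin, ran from asp-1 (539 ± 350, SD, n = 3) and cpr-1 (96.6 ± 87.1) to pept-1 (15.4 ± 3.62), ges-1 (7.70 ± 4.24) and pho-1 (3.46 ± 2.06). Neighbours in this order overlapped for ges-1 and pho-1, and for asp-1 and cpr-1, whose highest library reached 193 against a lowest of 167 for asp-1. With Dam::EMR-1 in wild type the order was ges-1 (8.33 ± 3.39), asp-1 (7.94 ± 6.44), cpr-1 (4.82 ± 5.95), pept-1 (0.159 ± 0.10) and pho-1 (0.130 ± 0.02). The first 3 overlapped one another and so did the last 2. The gene with the middle GFP::Dam level, pept-1, thus lay with pho-1 at the low end of Dam::EMR-1. These levels also depend on how many GATC sites a bin holds, which was not counted here.

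Fitted over the gene bodies alone, 3 of the 5 genes were called lower under mrg-1 RNAi, 3 in cec-4 mutants, 3 in the combination and 4 in wild type, and 0 were called higher. Of all gene bodies 10.7%, 12.6%, 15.4% and 23.1% were called lower and 6.83%, 8.37%, 10.4% and 14.2% higher in these backgrounds. cpr-1 was called lower in all 4 backgrounds, at −4.29 ± 1.43 (SE; adjusted p = 0.044) under mrg-1 RNAi, −4.80 ± 1.19 (adjusted p = 0.00945) in cec-4 mutants, −4.59 ± 1.18 (adjusted p = 0.00952) in the combination and −4.55 ± 1.18 (adjusted p = 0.00696) in wild type. asp-1 was called lower in all 4, at −5.04 ± 1.59 (adjusted p = 0.0358), −6.25 ± 1.37 (adjusted p = 0.00549), −4.41 ± 1.26 (adjusted p = 0.0162) and −6.35 ± 1.39 (adjusted p = 0.00271). pept-1 was called lower in all 4 as well, at −7.13 ± 1.32 (adjusted p = 0.00844), −6.80 ± 1.05 (adjusted p = 0.00167), −4.49 ± 0.92 (adjusted p = 0.00371) and −6.83 ± 1.07 (adjusted p = 7.6e-04). pho-1 was called in wild type only, and with the replicate number as a block also under mrg-1 RNAi (−5.51; adjusted p = 0.0362) and in the combination (−4.75; adjusted p = 0.0183). ges-1 was not called in any background, at 0.17, −0.23, −1.31 and −0.25, and under library size scaling its wild-type value was 0.11. Single libraries carried some of these calls: the cpr-1 call under mrg-1 RNAi was lost without any 1 of its 4 libraries, those of asp-1 and pept-1 there without the third library of either fusion, and for asp-1 also without the second Dam::EMR-1 library. The asp-1 call in the combination was lost without the second Dam::EMR-1 library, the third, or the first GFP::Dam library (adjusted p up to 0.059). The wild-type cpr-1 call was lost without the first GFP::Dam library (adjusted p = 0.0523). Without replicate 2 of every group the wild-type values were −7.19 for cpr-1, −8.14 for asp-1 and −0.55 for ges-1. The cpr-1 value under mrg-1 RNAi, with 1 library left per fusion, was −4.67.

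At 1 kb the whole windows were described bin by bin. Of the 219 bins, 172 held enough reads to be tested. Under mrg-1 RNAi 33 of these were called lower and 0 higher, against 7.46% and 0.357% of all bins tested. In cec-4 mutants 40 were lower and 0 higher, against 11.5% and 0.605%, and in the combination 64 and 0, against 15.4% and 2.12%. In wild type 75 were lower and 2 higher, against 21.5% and 4.09%, and both higher bins were in the window of ges-1. Neither was called without any 1 of 5 of the 6 wild-type libraries, and 1 was without the second GFP::Dam library. These counts rest on single libraries. Under mrg-1 RNAi the number lower was 0 without either Dam::EMR-1 library or without the third GFP::Dam library. In cec-4 mutants it was 0 without the first or the third Dam::EMR-1 library, 16 without the first GFP::Dam library and 7 without the third. In the combination it was 0 without the third Dam::EMR-1 library and 33 without the first, and in wild type it was 36 without the third Dam::EMR-1 library. Of the 18 tested bins that overlap one of the genes, 7 were called lower under mrg-1 RNAi, 10 in cec-4 mutants, 11 in the combination and 11 in wild type, and 0 were called higher.

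**Figure D3:**
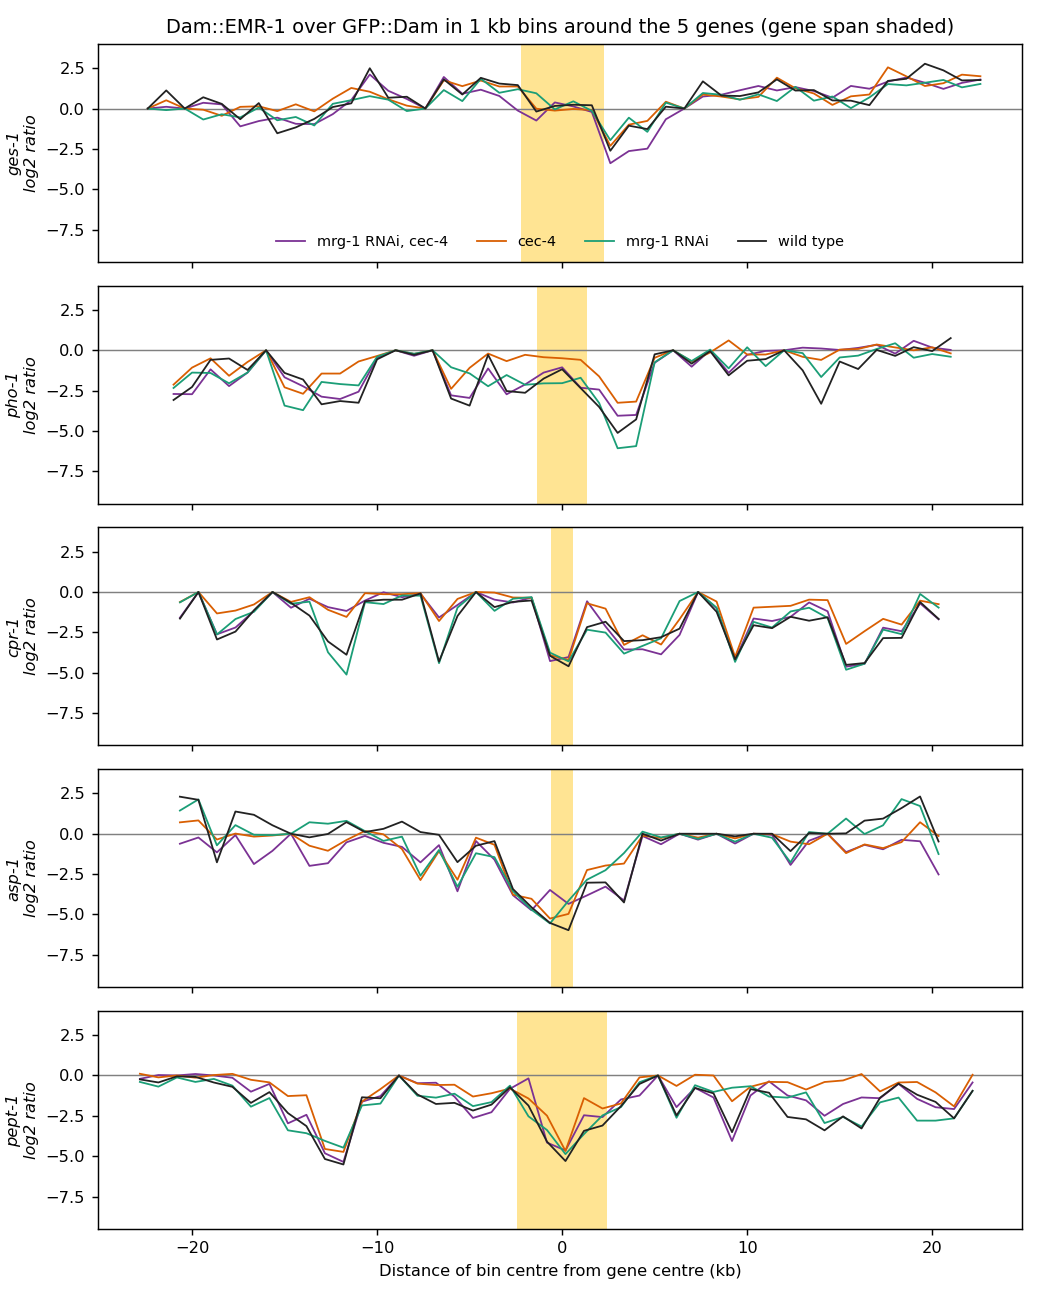
Mean over replicate pairs of the log2 ratio of Dam::EMR-1 over GFP::Dam (vertical axis) in 1 kb bins against the distance of the bin from the centre of the gene in kb, 1 panel per gene and 1 line per background, with the gene shaded. asp-1 is the floor of a dip with wild-type flanks near or above 0, cpr-1 and pept-1 dip along with other bins of their windows, and ges-1 lies near 0 with a dip at its right end.

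The lowest called bins outside the genes were at other genes of the same windows. In wild type they held 0 Dam::EMR-1 reads, against 224 GFP::Dam reads at dsh-1, a Dishevelled gene of Wnt signalling in the pho-1 window, and 224 at cyl-1, a cyclin L gene in the cpr-1 window. They held 0 against 157 in the asp-1 window, in the 1 kb bin that both Y39B6A.25 and Y39B6A.27 reach, and 0 against 341 at C15B12.8 in the pept-1 window. The third GFP::Dam library carried most of these reads: it held 123 at dsh-1, against 52 and 49 in the first and the second, 179 at cyl-1, against 26 and 19, 150 in the asp-1 window, against 1 and 6, and 275 at C15B12.8, against 47 and 19. The bin of the asp-1 window was not called with scaling by library size (adjusted p = 0.06) or without any 1 of the Dam::EMR-1 libraries (adjusted p up to 0.0679), and without the third GFP::Dam library it had too few reads to be tested. The other 3 bins were called under every setting run. With 0 reads in all 3 libraries a fitted ratio has no lower limit, so no fold is given for them.

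The genes were set against their own flanks within each replicate pair, using the log2 ratio of CPM plus 1. asp-1 and ges-1 lay below the 40 kb around them in 11 of 11 pairs. At asp-1 the gene minus its flanks was −3.91 ± 0.41 (SD, n = 2) under mrg-1 RNAi, −3.46 ± 1.16 (n = 3) in cec-4 mutants, −1.27 ± 0.82 (n = 3) in the combination and −5.80 ± 2.04 (n = 3) in wild type. At ges-1 it was −0.26 ± 0.29, −0.88 ± 0.27, −1.50 ± 0.80 and −0.59 ± 0.25. The gene value of ges-1 includes the low 1 kb bin at its right end, most of which lies outside the gene. pept-1 was below its flanks in 10 of 11 pairs, cpr-1 in 7 and pho-1 in 6. At cpr-1 the backgrounds differed: the gene minus its flanks was 0.63 ± 0.50 (SD) under mrg-1 RNAi, below 0 in 0 of 2 pairs, −1.92 ± 0.76 in cec-4 mutants and −1.86 ± 1.31 in the combination, below 0 in 3 of 3 in both, and −0.13 ± 2.47 in wild type, below 0 in 1 of 3. At pho-1 the added constant pulls the gene's low reads towards 0 more than those of its flanks. The pept-1 locus was lopsided: the left flank had a lower ratio than the right flank in 11 of 11 pairs, by −2.43 ± 1.36 (SD) on average.

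Whether the ratio at a gene differed between backgrounds was tested as the difference of the 2 ratios. At 10 kb 0 of the 8 bins were called in any of the 5 comparisons, and edgeR called 0% of all bins in each. At an unadjusted p under 0.05 the fit had 188 of 9960 bins for mrg-1 RNAi against wild type, 551 for cec-4 against wild type and 732 for the combination against wild type, and DESeq2 with adjustment called 0, 4 higher and 5 lower, and 13 higher and 19 lower. The 80 and 304 bins at an unadjusted p under 0.05 for the combination against cec-4 and against mrg-1 RNAi stood beside 0 and 0 called by DESeq2. The intervals were wide: cec-4 minus wild type was 0.05 (95% interval −0.99 to 1.10) for the left bin of ges-1, 0.72 (−1.62 to 3.06) for pho-1, −0.00 (−2.50 to 2.49) for cpr-1, 0.49 (−2.15 to 3.12) for the right bin of asp-1 and −0.08 (−2.79 to 2.63) for the left bin of pept-1. For the combination minus wild type these were −0.47 (−1.52 to 0.58), 0.07 (−2.27 to 2.42), 0.30 (−2.26 to 2.85), 1.52 (−1.14 to 4.17) and 2.29 (−0.52 to 5.10). For mrg-1 RNAi minus wild type the values were −0.23 (−1.40 to 0.95), −3.01 (−5.80 to −0.22), 0.17 (−2.73 to 3.07), 1.89 (−1.08 to 4.86) and −1.50 (−4.92 to 1.92). The right bin of pept-1 differed by 2.72 (0.27 to 5.17; unadjusted p = 0.0417) under mrg-1 RNAi and by 2.39 (0.20 to 4.58; unadjusted p = 0.0451) in cec-4 mutants, relative to wild type. Among the comparisons with wild type these 2 and pho-1 under mrg-1 RNAi (unadjusted p = 0.0469) had intervals that left out 0. For the combination the right bin of pept-1 differed by −2.53 relative to cec-4 mutants (unadjusted p = 0.0341) and by −2.86 relative to mrg-1 RNAi (unadjusted p = 0.0325). The left bin differed by 3.79 (unadjusted p = 0.0389) and pho-1 by 3.09 (unadjusted p = 0.0413) relative to mrg-1 RNAi. None of these passed the adjustment over all bins.

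Pair values per replicate number show each replicate of these comparisons. Exact two-sided permutation tests of 75 comparisons of gene, flanks and window had a lowest p of 0.1, which is the smallest that 3 against 3 pairs allow, and 0.2 is the smallest for 2 against 3. None could reach 0.05. Of 25 comparisons of the genes themselves, 6 had groups that did not overlap, against 15.6% of the same 5 comparisons over all gene bodies. With a pseudocount of 5 in place of 1, 3 of the 25 did not overlap, against 14.7%.

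The gene value of ges-1 was −1.63, −0.60 and −0.95 in the combination, against 0.23, −0.12 and 0.37 in cec-4 mutants, 0.28 and 0.08 under mrg-1 RNAi and 0.19, −0.34 and 0.87 in wild type. The combination lay below each of the other backgrounds without overlap, by −1.30 relative to wild type and −1.22 relative to cec-4 (exact p = 0.1 for both) and by −1.24 relative to mrg-1 RNAi (exact p = 0.2). Of all gene bodies, 5.82%, 7.98% and 8.78% lay lower without overlap in these comparisons. It was lower within each replicate number: in 3 of 3 relative to wild type, by 0.26 to 1.83 log2 units. With a pseudocount of 5 the 3 differences were −1.15, −1.08 and −1.11, still without overlap. With effective library sizes the values of the combination overlapped those of cec-4 mutants and of wild type. The flanks of ges-1 overlapped between the combination and wild type. These gene values include the 1 kb bin at the right end of ges-1, which lies mostly outside the gene, and were not computed without it.

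**Figure D4:**
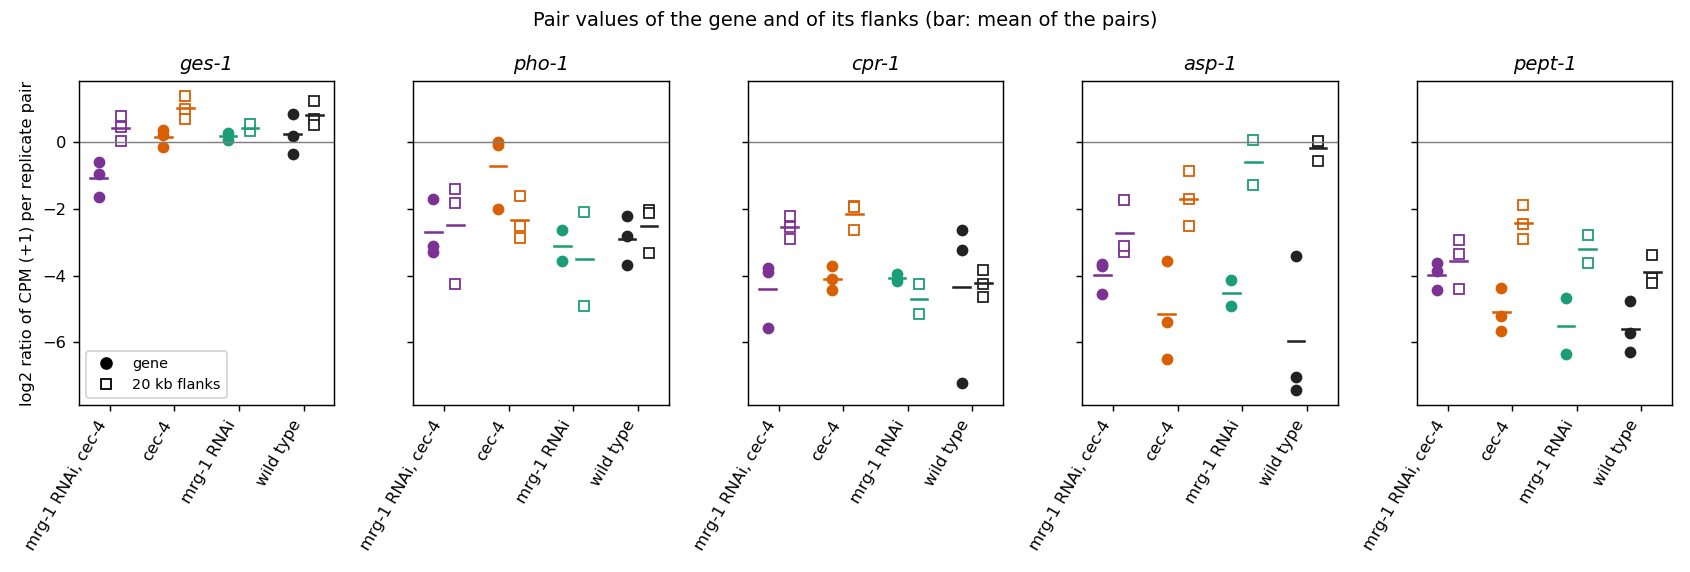
Log2 ratio of Dam::EMR-1 over GFP::Dam (CPM plus 1) per replicate pair over each gene (filled circles) and over its 20 kb flanks (open squares) in the 4 backgrounds; bars are means of the pairs. The ges-1 gene values of the combination, −1.63 to −0.60, lie below those of the other backgrounds, and the cpr-1 flanks lie higher in cec-4 mutants and the combination than in wild type.

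The gene value of pept-1 was −3.61, −3.85 and −4.44 in the combination, against −4.67 and −6.35 under mrg-1 RNAi and −5.73, −4.75 and −6.30 in wild type. The combination was higher than wild type without overlap, by 1.63 (exact p = 0.1), as 9.16% of all gene bodies were, and higher in 3 of 3 replicate numbers. It was also higher than mrg-1 RNAi without overlap, by 1.55 (exact p = 0.2), as 14.4% of gene bodies were. Both separations depended on the scale: with a pseudocount of 5 the groups overlapped and the differences were 0.72 and 0.51, and with effective library sizes they overlapped as well. Its values overlapped those of cec-4 mutants, which were −5.21, −4.36 and −5.67. In the third replicate of the combination nearly all Dam::EMR-1 reads on pept-1 lay in the 1 kb bin near its left end. Gene values without that bin were not computed. The remaining comparison without overlap, pho-1 in cec-4 mutants (0.00, −2.0 and −0.08) against wild type (−2.21, −2.82 and −3.66), rests on the 2 cec-4 pairs with almost no reads of either fusion, and 13.3% of gene bodies were higher without overlap in that comparison. With a pseudocount of 5 these groups overlapped too, with a difference of 1.03.

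For cec-4 mutants and the combination against wild type, the gene values of cpr-1 and asp-1 overlapped and their flank values did not. The gene differences were 0.27 and −0.05 for cpr-1 and 0.81 and 1.98 for asp-1, in cec-4 mutants and in the combination. The asp-1 overlap rested on wild-type replicate 2, at −3.40, against −7.04 and −7.44 in replicates 1 and 3. Without replicate 2 of every group the asp-1 gene values did not overlap, with differences of 1.30 and 3.13, and those of cpr-1 still did. In that setting 50.2% of the 5 comparisons over all gene bodies do not overlap. The flanks of cpr-1 had pair values of −1.90, −2.64 and −1.95 in cec-4 mutants and −2.55, −2.89 and −2.20 in the combination, against −4.24, −3.81 and −4.62 in wild type (exact p = 0.1 for both). All cec-4 and combination pairs were higher than all wild-type pairs, as for 23.7% and 20.8% of the flanks of all genes. Most of this lay to the left of cpr-1, where the left flank averaged −1.46 ± 0.50 (SD, n = 3) in cec-4 mutants and −1.43 ± 0.53 in the combination, against −4.08 ± 1.33 in wild type. The flanks of asp-1 went the other way: −2.52, −0.85 and −1.69 in cec-4 mutants and −3.28, −1.74 and −3.11 in the combination, against 0.02, 0.04 and −0.55 in wild type (exact p = 0.1 for both). They were lower without overlap, as 4.88% and 8.44% of the flanks of all genes were. The flanks of pept-1 were −2.89, −2.45 and −1.87 in cec-4 mutants. They were higher than −4.07, −3.37 and −4.23 in wild type without overlap (exact p = 0.1), as 23.7% of flanks were. The combination, at −4.40, −2.91 and −3.35, was lower than cec-4 mutants without overlap (exact p = 0.1), as 9.56% of flanks were. That gap was thin: the highest pair of the combination was −2.913 and the lowest of cec-4 mutants −2.887.

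At 100 kb, where each bin holds more reads, the bins of pho-1, cpr-1, asp-1 and pept-1 were called lower under mrg-1 RNAi, in cec-4 mutants and in the combination, where 36.4%, 32.9% and 35% of all bins were. In wild type those of pho-1, cpr-1 and pept-1 were, against 42.2% of all bins, and the bin of asp-1 had −1.12 ± 0.51 (SE; adjusted p = 0.0509). None was called higher, against 32.9%, 33.1%, 33.6% and 34.7% of all bins in these 4 backgrounds. Between backgrounds, edgeR called 3 differences at these loci. The bin that holds cpr-1 was higher in cec-4 mutants than in wild type by 1.77 ± 0.38 log2 units (SE; adjusted p = 0.018), as 4.58% of the 100 kb bins were, and higher in the combination than in wild type by 1.86 ± 0.38 (adjusted p = 0.00635), as 12.5% were. With the replicate number as a block, 19.1% and 19.3% of the 100 kb bins were called higher in these comparisons, and the cpr-1 differences were 1.72 (adjusted p = 0.00416) and 1.80 (adjusted p = 0.00167). Its pair values were −2.54, −3.14 and −2.49 in cec-4 mutants and −2.19, −3.02 and −3.14 in the combination, against −4.83, −4.04 and −4.84 in wild type, with no overlap. The bin that holds pept-1 was higher in cec-4 mutants than in wild type by 1.94 ± 0.48 (adjusted p = 0.0251), with pair values of −1.85, −2.25 and −1.72 against −4.05, −3.21 and −4.65, and by 1.92 (adjusted p = 0.0106) with the block. All 3 stayed below 0, so that Dam::EMR-1 was still depleted there in cec-4 mutants. Without replicate 2 of every group the differences were 2.27, 2.32 and 2.49, and all were called. With scaling by library size the cpr-1 call in cec-4 mutants had adjusted p = 0.0687 and the pept-1 call 0.0703. Left out one at a time, any of 4 libraries, the first and the third GFP::Dam libraries of cec-4 and of wild type, ended the cpr-1 call in cec-4 mutants (adjusted p up to 0.0932). The pept-1 call was lost without any of those 4, without the third Dam::EMR-1 library of cec-4 and without the first or the third of wild type (adjusted p up to 0.0961). The cpr-1 call in the combination held without any single library.

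The 10 kb bins of cpr-1 and the left bin of pept-1, with differences of −0.00 and −0.08 for cec-4 minus wild type, did not show this. In the other 9 bins of 10 kb around cpr-1 the median difference of cec-4 minus wild type was 2.50, positive in 8 of 9, and around pept-1 it was 1.81, positive in 8 of 8, and none of these bins was called on its own. Around asp-1 the same median was −0.98 and 0 of 8 were positive, and for the combination minus wild type it was −2.01. The 100 kb bin of asp-1 differed by −1.33 ± 0.72 (adjusted p = 0.225) in cec-4 mutants relative to wild type, and by −1.60 ± 0.46 (adjusted p = 0.0379) without replicate 2 of every group. mrg-1 RNAi alone differed from wild type at 0 of the 5 bins of 100 kb, and edgeR called 0% of all 100 kb bins in that comparison, with 53 of 1004 at an unadjusted p under 0.05.

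The wider families of digestive genes were read in the same fit. Other protein-coding genes of 9 families, taken by their symbols, numbered 129 and lay in 109 bins of 10 kb: carboxylesterases, acid phosphatases, cysteine cathepsins, aspartic proteases, peptide transporters, lysozymes, saposin-like proteins, lysosomal lipases and sodium/proton exchangers. These bins are not all apart from the 5 loci: pho-4 lies in the bin of pho-1, and asp-15 and asp-16 were read in the left bin of asp-1. Their calls below are those of the 5 genes' own bins counted again. Genes whose bin was called lower numbered 61 under mrg-1 RNAi, 50 in cec-4 mutants, 63 in the combination and 65 in wild type, and higher 13, 16, 11 and 16. Counted once per bin, 49, 39, 51 and 54 of the 109 bins were lower and 11, 12, 10 and 14 higher, against 21.1%, 20.3%, 22.9% and 29% of all bins lower and 18.5%, 21.1%, 23.7% and 25.4% higher. Under mrg-1 RNAi the number lower was 34 without the third Dam::EMR-1 library and 24 without the third GFP::Dam library. The medians were −2.06, −1.38, −1.86 and −2.11. Place on the chromosome went with these counts. In wild type, 49 of the 68 genes in the middle parts of the chromosomes were called lower and 2 higher. These genes lay in 58 bins, of which 42 were called lower and 1 higher. The median was −3.31 by gene and by bin. Of all bins in the middle parts, 53.4% were called lower and 2.08% higher, and their median was −2.17. In the outer parts 16 of 61 genes were called lower and 14 higher. Counted once per bin the order turned: of 51 bins, 12 were called lower and 13 higher. The median there was 0.14 by gene and 0.23 by bin. Of all bins in the outer parts, 16.7% were called lower and 37.0% higher, and their median was 0.94.

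Within families the range was wide. The wild-type counts that follow stand beside 29% of all 10 kb bins lower and 25.4% higher, and most families are too small to be read against these shares. They count genes, and genes in the same bin share its value. Counted once per bin, saposin-like genes had 14 of 24 lower and 1 higher, lysozymes 7 of 12 and 4, and aspartic proteases 7 of 13 and 2. Cysteine cathepsins had 6 of 9 and 1, acid phosphatases 6 of 15 and 2, and carboxylesterases 6 of 19 and 1. Among carboxylesterases, the family of ges-1, 6 of 21 were lower and 1 higher in wild type, from cest-8 at −4.65 ± 1.04 (SE) to cest-27 at 1.35 ± 0.48. Acid phosphatases ran from acp-5 at −6.40 to pho-14 at 1.31, with 6 of 18 lower and 3 higher. The 6 include pho-4, which shares the bin of pho-1. Of the cysteine cathepsins 6 of 10 were lower and 1 higher, from cpr-9 at −5.57 to cpr-2 at 2.25. Aspartic proteases had 9 of 16 lower and 2 higher, from asp-6 at −5.64 to asp-18 at 2.54. The 9 include asp-15 and asp-16 by the left bin of asp-1, though neither was called over its own gene body. The 2 other peptide transporter genes were both lower, with pept-2 at −6.05 ± 1.28. Lysozymes, which break bacterial cell walls, had 10 of 16 lower and 5 higher, from ilys-4 at −4.67 to lys-7 at 2.76, and saposin-like genes 19 of 30 and 1, from spp-3 at −5.86 to spp-29 at 2.54. Lysosomal lipases ran from lipl-7 at −5.88 to lipl-3 at 2.19 (3 of 8 lower, 2 higher), and exchangers from nhx-2, the sodium/proton exchanger of the gut's apical membrane, at −5.39 to nhx-1 at 1.96 (4 of 8 lower, 1 higher).

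**Figure D5:**
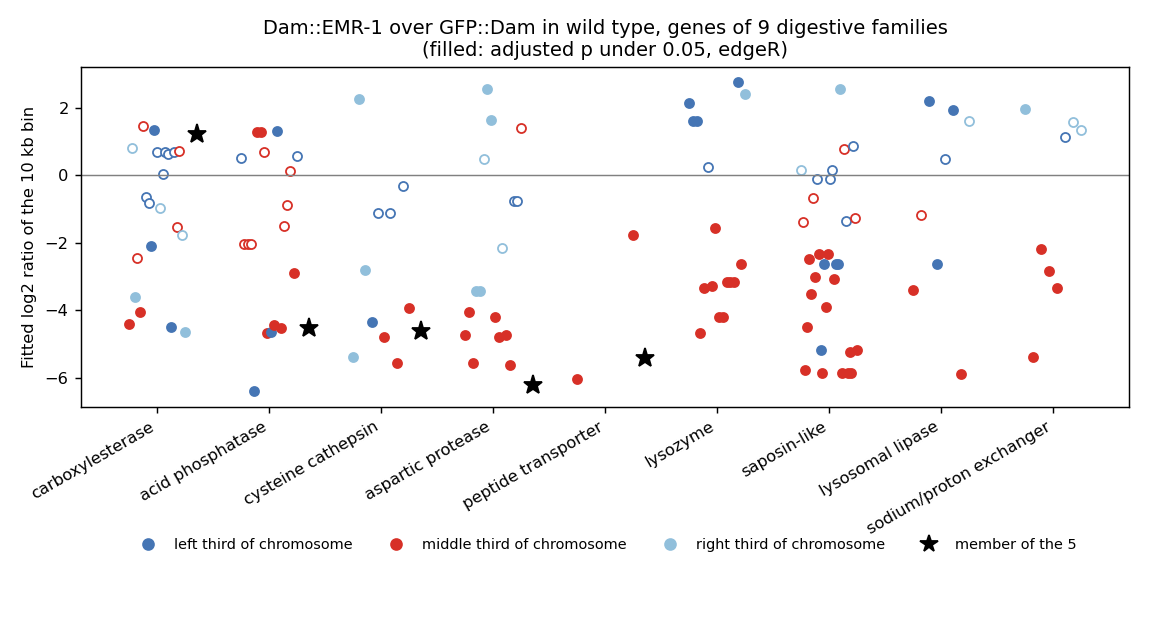
Fitted wild-type log2 ratio of Dam::EMR-1 over GFP::Dam in the 10 kb bin of each of 129 genes of 9 digestive families, coloured by part of the chromosome, filled where the adjusted p is under 0.05; stars mark the 5 genes. Genes of the middle parts lie mostly below 0, with a median of −3.31. The stars of pho-1 (−4.53, the same bin and value as pho-4), cpr-1 (−4.63), pept-1 (−5.42) and asp-1 (−6.21) lie below that median, and that of ges-1 is above 0.

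The genes whose 10 kb bins were most like those of the 5 over the 11 replicate pairs were found by the root mean square difference of the pair log2 ratios, at least 100 kb away. The nearest to ges-1 were inx-13, an innexin (0.248), wrt-7, a hedgehog-related gene (0.255), and comt-4 (0.257). To pho-1 they were fil-2 (0.726), ent-2, a nucleoside transporter (0.874), and nhr-34, a nuclear hormone receptor (0.94). To cpr-1 they were cmd-1, for calmodulin (0.693), elt-4, of the GATA factors (0.705), and gpd-3, for glyceraldehyde phosphate dehydrogenase (0.715). To asp-1 they were saeg-1 (0.557), let-526 (0.605) and puf-9, of the Pumilio family (0.764), and to pept-1 elc-1, for elongin C (0.45), miz-1 (0.598) and tps-1, for trehalose phosphate synthase (0.714). The pairs share libraries, and a small difference describes likeness of level.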

How the data were processed

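Per the labels' protocols, DNA cut at methylated GATC sites was ligated to adaptors, amplified by PCR and sequenced. In the deposited files each bin has an unnormalized read count per library, on build ce11 per the submitters' processing notes. The aligner was not given in the sources used here. The deposited log2 tables hold the authors' log2 ratio of Dam::EMR-1 over GFP::Dam per background and were used for comparison only. Gene positions came from a RefSeq table of the same assembly.

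Counts were fitted with edgeR 4.0.16 (quasi-likelihood test, TMM, filterByExpr) in 1 model of 22 libraries in 8 groups, for all bins of 1, 10 and 100 kb and all gene bodies, as summed 1 kb bins, and Benjamini-Hochberg adjusted. Self-tests on simulated counts were run first. Standard errors are the log2 ratio divided by the square root of F. Pair values used a pseudocount of 1 CPM and exact permutation tests. The 95% intervals of fitted differences are normal intervals from these standard errors. Intervals of shares (exact, Clopper-Pearson) and the limit for 0 reads (3 counts) cover counting error only, since PCR reads are not independent molecules.

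Per the labels all strains of a replicate were cultured side by side, so replicate numbers pair the libraries: same-numbered libraries deviated together (correlation over 0.1) in 15 of 15 GFP::Dam and 12 of 15 Dam::EMR-1 comparisons. Alternatives were library size scaling, DESeq2 1.42.0, no filter, the replicate block, other pseudocounts and leaving out libraries. Named genes were the 5 members, their neighbours within 20 kb, the extreme called family members and the 3 most like genes. Members, families and lists were chosen with earlier results of these data known.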

Additional observations from a re-analysis of the deposited data

Results flagged for a closer look

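At 100 kb, 3 differences between backgrounds passed the test of the difference itself (edgeR, adjusted over 1004 bins). The bin with cpr-1 (chromosome V, 11900001 to 12000000) had a log2 ratio of −2.93 in cec-4 mutants against −4.70 in wild type, a difference of 1.77 ± 0.38 (SE; adjusted p = 0.018), higher in 3 of 3 replicate numbers. The same bin had −2.84 in the combination, a difference from wild type of 1.86 ± 0.38 (adjusted p = 0.00635). The bin with pept-1 (chromosome X, 6400001 to 6500000) had −2.14 in cec-4 mutants against −4.07 in wild type, a difference of 1.94 ± 0.48 (adjusted p = 0.0251). Replicate 2 showed the smallest difference in each of these 3; its part in them was not tested beyond the values without it.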

How the results depend on the processing

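Of the 8 bins at 10 kb, every direction was kept under scaling by library size, DESeq2, no filter, the replicate block, a fit of 1 background's libraries alone and leaving out replicate 2: 184 of 192 values stayed on their side of the threshold, 5 lost the call and 3 gained it. The left bin of ges-1 was not called (0 bins called higher) with its libraries fitted alone, in wild type and in cec-4 mutants, nor in cec-4 without replicate 2 of every group. With the 100 kb bins or the gene bodies in place of the 10 kb bins, 0 of the 5 genes were called higher in wild type and in cec-4 mutants. At 100 kb, 2 of the 5 differed in cec-4 and 1 in the combination, both against wild type. With scaling by library size the 100 kb differences of cec-4 minus wild type were 1.79 for cpr-1 and 1.95 for pept-1, no longer called. The gene-body value of ges-1 changed sign under that scaling, to 0.064 in cec-4 mutants and 0.11 in wild type, and to −0.16 under mrg-1 RNAi without replicate 2 of every group. The cause was not tested.

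The 1 kb counts moved most. Bins called lower numbered 6 under mrg-1 RNAi, 13 in cec-4 mutants, 27 in the combination and 29 in wild type with scaling by library size. Over all 71099 bins tested, 751, 1784, 2754 and 4965 were, against 5304, 8157, 10943 and 15265 with TMM scaling. With no filter 6, 26 and 41 were called lower in the first 3, where 713, 3601 and 5825 of all 85328 bins were. Bins called higher in wild type numbered 0 with library size scaling and 0 with no filter, where 2617 of 71099 and 2286 of 85328 bins were. DESeq2 called 75 lower under mrg-1 RNAi and 1 higher in the combination. Over all 71099 bins it called 16415 lower under mrg-1 RNAi and 2886 higher in the combination. Under the replicate block 55 were called lower under mrg-1 RNAi, and 1 was called higher in cec-4 mutants and 1 in the combination. Of all 71099 bins the block called 11454 lower under mrg-1 RNAi, and 1975 and 4132 higher in cec-4 mutants and in the combination. Over all features the block made more calls: 192 of 1004 bins of 100 kb were higher in cec-4 than in wild type, against 46 without it, and 194 in the combination, against 125. Gene bodies called higher numbered 2590 under mrg-1 RNAi, against 1297, and 1 kb bins called higher in wild type 6525, against 2911. Among the counts of the 8 bins, the 5 gene bodies and the family genes the block moved none by over 1.5 times, and the calls of single bins and genes that it changed, at ges-1 and pho-1, stand with those results. Family genes called higher numbered 6 under mrg-1 RNAi and 8 in cec-4 mutants with scaling by library size, where 1256 and 1882 of 9960 bins were. They numbered 3 and 4 with the libraries of 1 background alone, where 936 of 9895 and 1236 of 9771 bins were. Without replicate 2 they numbered 7 in the combination, where 1972 of 9955 bins were. Gene comparisons without overlap numbered 3 with a pseudocount of 5, against 14.7% of these comparisons over all gene bodies. Without replicate 2 they numbered 17, when 1 or 2 pairs are left per group and 50.2% over all gene bodies do not overlap. With effective library sizes they numbered 3, and the share over all gene bodies was not computed there, so that count cannot be read against one.

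Leaving out 1 library at a time, 10 kb bins called higher ranged from 0 to 1 in cec-4 mutants and from 0 to 1 in wild type, and bins called lower under mrg-1 RNAi from 3 to 5. The 100 kb differences ranged from 1.52 to 2.06 and from 1.49 to 2.15 for cpr-1 in cec-4 and in the combination, and from 1.61 to 2.28 for pept-1. At 1 kb, bins called lower ranged from 0 to 27 under mrg-1 RNAi, 0 to 33 in cec-4 mutants, 0 to 58 in the combination and 36 to 68 in wild type, and bins called higher from 0 to 1 in wild type. Family genes called higher ranged from 1 to 10 under mrg-1 RNAi, 6 to 14 in cec-4 mutants and 7 to 9 in the combination, and those called lower from 24 to 50 under mrg-1 RNAi. The ges-1 gene-body value ranged from −0.18 to 0.62 under mrg-1 RNAi and from −0.65 to 0.51 in wild type, and that of pho-1 from −6.97 to 2.61 in cec-4 mutants. Depth limits pho-1 most, where 2 of 3 cec-4 pairs held at most 1 read.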
